A study of Mus musculus with 20 samples.

Results

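Expression of the 7 genes *Csn1s1*, *Csn1s2a*, *Csn2*, *Csn3*, *Wap*, *Lalba* and *Elf5* was followed in primary tumors and cultured cells of the mouse mammary carcinoma line Mvt1. The genes were taken by symbol from 20188 genes measured in tumors and by Ensembl identifier from 50667 Ensembl genes measured in cultured cells. All 7 were listed in both tables. In tumors 6 of the 7 had a value above 0 in at least 1 library, and in cells 3 of the 7 did.

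The first 4 genes encode caseins, the calcium-binding proteins that make up most of the protein of mouse milk. *Csn3* encodes κ-casein, which coats the casein micelle and keeps it in solution, *Wap* encodes whey acidic protein, and *Lalba* encodes α-lactalbumin, the subunit that directs β-1,4-galactosyltransferase to lactose synthesis. In the mammary gland prolactin acts through its receptor, the kinase JAK2 and the transcription factor STAT5, and *Elf5* encodes an ETS transcription factor that is required for alveolar cells to form and to secrete milk. The gland of a virgin mouse holds few cells of this kind.

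Mvt1 cells, an FVB mouse line, had been transduced with an shRNA against *Rnaseh2c* (sh4) or with a scramble shRNA (scr), both under puromycin selection. *Rnaseh2c* encodes a scaffold subunit of the ribonuclease H2 complex. Tumors were collected 30 days after the cells had been placed in the fourth mammary fat pad of virgin female FVB/nJ mice, about 6 weeks old when obtained, and RNA came from small sections of tumor. There were 3 sh4 and 3 scr tumors, with 1 tumor of each group in each of 3 experiments, and 3 sh4 and 3 scr plates of cells. The labels name 1 line per shRNA. The labels call the plates biological replicates without saying that they were transduced apart, so p-values between plates measure the spread between these plates.

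Tumor values are reads divided by gene length and library size (RPKM) from mRNA libraries, and cell values are the same measure for fragments (FPKM) from total RNA libraries. The scales differ, and no level was tested across them. RPKM summed over listed genes to between 399938 and 484868 in the tumors, FPKM over Ensembl genes to between 659082 and 864566 in the cells, and read numbers are not given in the sources used here. *Rnaseh2c* was measured at 10.2, 22.4 and 19.8 RPKM in sh4 tumors, against 26.9, 52.0 and 25.9 RPKM in scr tumors, and all sh4 tumors lay below all scr tumors. In cells it was at 3.19, 5.36 and 4.28 FPKM with sh4, against 5.83, 7.06 and 5.34 FPKM with scr, where the highest sh4 value lay above the lowest scr value. Groups were compared with limma on log2(value + 0.5) wherever the 6 libraries of a table averaged 0.1 or more, and p-values were adjusted by Benjamini-Hochberg over every gene tested. Adding 0.5 makes the fold change of a gene with low values smaller than it was.

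The casein genes of the set lie near each other on chromosome 5, with a further casein gene, *Csn1s2b*, and other genes between *Csn1s2a* and *Csn3*. In mm9 coordinates *Csn1s1* spans chr5:88095249-88111598, *Csn2* chr5:88121647-88128446 on the minus strand, *Csn1s2a* chr5:88203592-88217822 and *Csn3* chr5:88354604-88361690. *Wap* lies at chr11:6531490-6538652, *Lalba* at chr15:98310831-98313114 and *Elf5* at chr2:103251845-103291146. The upstream sequences of 3 caseins are shown because these genes stood at or near 0 in tumors and cells, and *Csn3* has no entry in the promoter table used. They are the 250 bases before the annotated start in RefSeq (GRCm38.p6), 5′ to 3′ on the strand of the gene, and capitals mark the letters TTCNNNGAA, which STAT proteins are known to bind and which read the same on both strands.
Csn1s1: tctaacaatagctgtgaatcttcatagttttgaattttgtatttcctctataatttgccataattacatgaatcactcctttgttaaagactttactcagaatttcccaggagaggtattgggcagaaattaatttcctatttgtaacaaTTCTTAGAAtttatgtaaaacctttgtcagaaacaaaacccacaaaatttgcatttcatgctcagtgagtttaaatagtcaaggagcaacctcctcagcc
Csn2: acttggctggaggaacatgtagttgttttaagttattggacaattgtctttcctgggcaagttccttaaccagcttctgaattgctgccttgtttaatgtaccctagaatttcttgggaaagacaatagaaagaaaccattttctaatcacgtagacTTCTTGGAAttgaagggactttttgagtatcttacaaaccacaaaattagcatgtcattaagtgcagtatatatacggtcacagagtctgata
Csn1s2a: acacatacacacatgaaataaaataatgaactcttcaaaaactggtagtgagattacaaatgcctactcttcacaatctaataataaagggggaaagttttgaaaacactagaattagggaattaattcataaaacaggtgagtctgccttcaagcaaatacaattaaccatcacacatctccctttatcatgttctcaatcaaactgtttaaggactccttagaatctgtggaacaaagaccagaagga
The windows lie at chr5:87665958-87666207 for *Csn1s1*, chr5:87699426-87699675 on the minus strand for *Csn2* and chr5:87774200-87774449 for *Csn1s2a*, in the GRCm38.p6 build. The pattern occurred once upstream of *Csn1s1* (TTCTTAGAA, first base at -100 from the start) and once upstream of *Csn2* (TTCTTGGAA, first base at -93). It was not found in this window of *Csn1s2a*, *Wap*, *Lalba* or either start of *Elf5*. Of 6 members with a promoter entry 2 thus held the pattern, as did 7.02% of the 32851 windows of this length. A match is a run of letters and not a measured binding site.

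*Csn3* was the one member expressed in every tumor and in every plate. It was measured at 4.19, 1.37 and 1.58 RPKM in sh4 tumors 1 to 3, against 2.56, 2.86 and 2.91 RPKM in scr tumors 1 to 3. The highest and the lowest value both came from sh4 tumors, the groups overlapped, and the scr tumors lay close together between them. The mean was 2.38 ± 1.57 RPKM in sh4 tumors and 2.78 ± 0.19 RPKM in scr tumors (SD, n = 3 each), and 57.1% of genes listed in tumors had a lower mean than *Csn3*. The log2 fold change was -0.32 (standard error 0.36, limma adjusted p = 0.995, exact two-sided permutation p = 0.4, where 3 tumors against 3 cannot go below 0.1).

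Within experiments the direction of *Csn3* was not the same. In experiment 1 the sh4 tumor was higher than the scr tumor by 0.62 on the log2 scale, while in experiments 2 and 3 the difference was -0.85 and -0.71. The size of the difference moved with each sh4 tumor. The log2 fold change was -0.73 once sh4 tumor 1 was left out (limma adjusted p = 0.250), -0.07 once tumor 2 was and -0.15 once tumor 3 was. It lay between -0.36 and -0.29 with a scr tumor left out.

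In cultured cells *Csn3* was at 3.31, 3.34 and 2.90 FPKM with sh4, against 2.93, 3.88 and 3.96 FPKM with scr. The lowest scr plate lay within the range of the sh4 plates. Means were 3.18 ± 0.25 FPKM with sh4 and 3.59 ± 0.57 FPKM with scr (SD, n = 3 each), and 82.4% of Ensembl genes listed in cells had a lower mean. This share and that of the tumors rest on unlike lists and cannot be compared. In cells 21106 of 50667 listed genes averaged 0.1 or more, and in tumors 13487 of 20188 did. The log2 fold change of *Csn3* in cells was -0.14 (standard error 0.12, limma adjusted p = 0.553, exact two-sided permutation p = 0.3). The subunit gene *Cops3*, which shares the alias CSN3, has a line of its own in the tumor table at 33.2 to 39.0 RPKM and is not the gene described here.

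**Figure D1:**
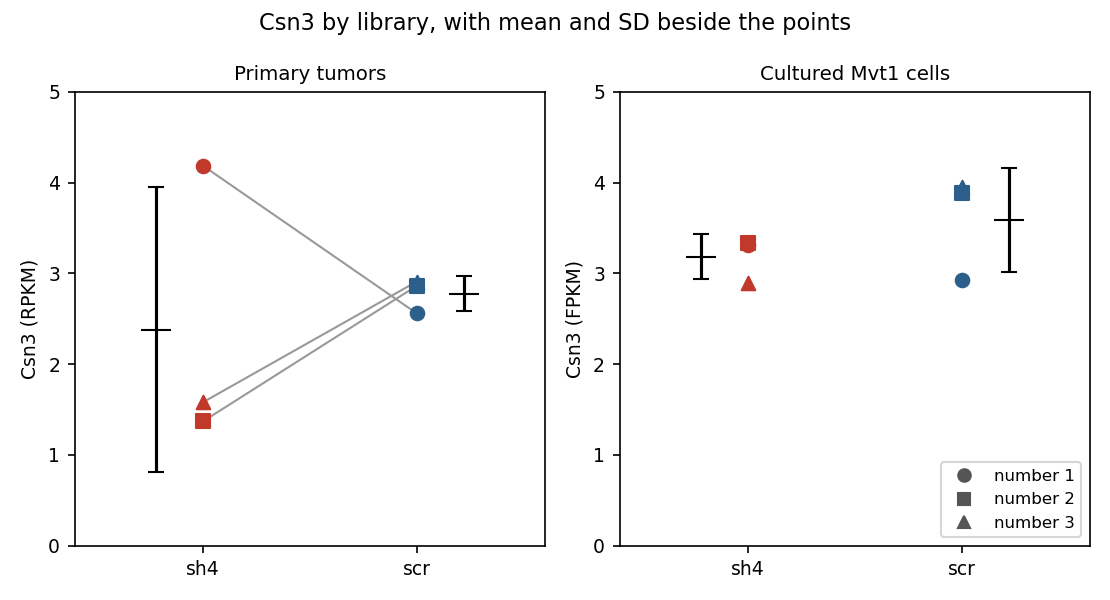
*Csn3* in primary tumors (left, RPKM) and in cultured Mvt1 cells (right, FPKM), with sh4 left of scr in each panel. Symbols mark the replicate number, grey lines join the tumors of 1 experiment, and black bars give the mean and SD of 3 libraries. The sh4 tumors spread from 1.37 to 4.19 RPKM, on both sides of the scr tumors at 2.56 to 2.91 RPKM.

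The other genes of the casein locus were at or near 0. From the start of *Csn1s1* to the end of *Csn3*, 266 kb of chromosome 5, the annotation holds 8 protein-coding genes, of which the tumor table lists 7 and the cell table all 8. Apart from *Csn3* no gene of this stretch exceeded 0.228 RPKM in a tumor or 0.0096 FPKM in a plate of cells. That tumor value was *Csn1s1* (αS1-casein) in scr tumor 2. *Csn1s1* was at 0, 0.0176 and 0 RPKM in sh4 tumors, against 0, 0.228 and 0 RPKM in scr tumors. *Csn2* (β-casein) was at 0.0207, 0.0207 and 0 RPKM in sh4 tumors and at 0, 0.0207 and 0 RPKM in scr tumors. *Csn1s2a* (αS2-casein) was listed at 0 in 5 tumors and at 0.0255 RPKM in scr tumor 2. In cultured cells all 3 genes were listed at 0 in every plate, whereas 12 of 12 housekeeping genes checked were above 0 in every plate and tumor.

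These low values are whole multiples of 1 step per gene, to within 2%. The step was set from the values themselves, as the smallest nonzero value of the gene or a whole fraction of it. The step of *Csn1s1* was 0.0176 RPKM, and scr tumor 2 stood at 13 steps while sh4 tumor 2 stood at 1. All nonzero *Csn2* values were 1 step, and the only nonzero *Csn1s2a* value was 1 step by definition. If a step is a single read, the 6 tumors together held 14 reads of *Csn1s1*, 3 of *Csn2* and 1 of *Csn1s2a*. Neither the 3 genes nor *Wap* had the mean of 0.1 RPKM needed for a test, and no fold change is given for them. In a fit of the tumors without this filter 0 of the 7 members were called.

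*Wap* was listed at 0 RPKM in all 6 tumors. In cultured cells it was at 0.057, 0.063 and 0 FPKM with sh4, against 0.131, 0.081 and 0.054 FPKM with scr. The ranges overlapped, and at 0.064 FPKM over the 6 plates *Wap* was under the mean needed for a test. The cell libraries were made from total RNA and the tumor libraries from mRNA, so the presence of *Wap* in one table and not in the other cannot be assigned to the cells or to the library type.

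*Lalba* was at 0.290, 0.097 and 0.258 RPKM in sh4 tumors, against 0.064, 0.581 and 0 RPKM in scr tumors. The scr tumors held both the highest and the lowest value, and the means of both groups were 0.215 RPKM (SD 0.104 with sh4 and 0.318 with scr, n = 3 each). The step was 0.0322 RPKM, the smallest nonzero value divided by 2. In these steps the sh4 tumors stood at 9, 3 and 8 and the scr tumors at 2, 18 and 0, which makes 20 steps in each group. The log2 fold change was 0.08 (standard error 0.29, limma adjusted p = 0.997, exact permutation p = 0.9). In cultured cells *Lalba* was listed at 0 in all plates.

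*Elf5* was at 0.202, 0.146 and 0.045 RPKM in sh4 tumors, against 0, 0.372 and 0.011 RPKM in scr tumors. Again scr tumor 2 was highest, and the other scr tumors were lower than every sh4 tumor. The mean was 0.131 ± 0.080 RPKM in sh4 tumors and 0.128 ± 0.212 RPKM in scr tumors (SD, n = 3 each), with 35 steps in sh4 tumors against 34 in scr tumors. The log2 fold change was 0.05 (standard error 0.23, limma adjusted p = 0.997, exact permutation p = 0.8). *Elf5* reached the mean needed for a test only with scr tumor 2 included. The plates held 0.003, 0.008 and 0 FPKM with sh4, against 0.003, 0.010 and 0 FPKM with scr.

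Ordered by mean RPKM over the 6 tumors, *Csn3* (2.58) was followed by *Lalba* (0.215), *Elf5* (0.129), *Csn1s1* (0.041), *Csn2* (0.010), *Csn1s2a* (0.0043) and *Wap*. *Csn3* lay above *Lalba* in every tumor, and the ranges of all later neighbours overlapped. In tumors 0 of the 3 members tested were called at a limma adjusted p under 0.05, as was 0% of the 13487 genes tested (564 genes at an unadjusted p under 0.05). In cells 0 of 1 was called, beside 1.28% of 21106 genes. In all 4 comparisons sh4 and scr overlapped, whereas 9.17% of genes tested in tumors and 27.5% in cells had groups that did not overlap.

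**Figure D2:**
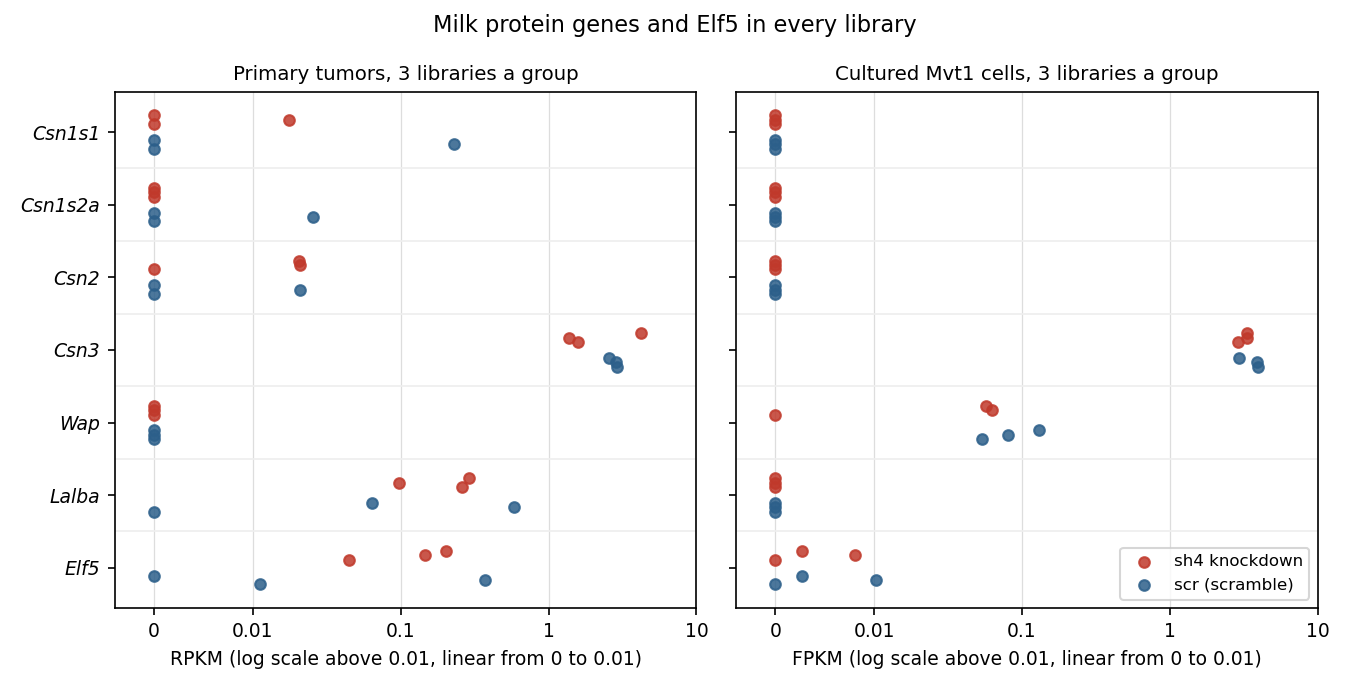
Level of each of the 7 genes in every library of the tumors (left, RPKM) and of the cultured cells (right, FPKM), on an axis that is linear from 0 to 0.01 and logarithmic above. Red points are sh4 and blue points scr libraries, 3 of each. *Csn3* stands above 1 in all 12 libraries, and every other gene stays under 1.

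Scr tumor 2, the tumor with the highest *Elf5* and *Lalba*, also held the most transcripts of adipocyte genes. *Fabp4*, the fatty acid carrier of adipocytes, was at 190, 57.1 and 31.7 RPKM in sh4 tumors, against 21.4, 1514 and 163 RPKM in scr tumors, and *Cfd* (adipsin) was at 810 RPKM in scr tumor 2 and at 5.37 to 68.5 RPKM in the other 5 tumors. Over the 10 adipocyte genes of the list the sum was 45.7 to 306 RPKM in sh4 tumors and 34.1 to 2572 RPKM in scr tumors, and no gene of the list was at 0 in all tumors. In log2 units scr tumor 2 stood 3.02 above the mean of the 6 tumors for this list, 0.65 above it for *Lalba* and 0.50 above it for *Elf5*. Sh4 tumor 1 was second in all 3, with 306 RPKM of adipocyte genes. The other tumors did not keep this order, as scr tumor 3 had 268 RPKM of adipocyte genes with *Lalba* at 0 and sh4 tumor 3 had 45.7 RPKM with *Lalba* at 0.258 RPKM. The part of fat tissue in the *Lalba* and *Elf5* values was not tested. In a bulk sample fewer cells of a type and less RNA per cell cannot be told apart.

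Without scr tumor 2 the log2 fold change of *Lalba* was 0.42 (limma adjusted p = 0.819) and *Elf5* fell under the mean needed for a test. *Csn3* was hardly moved by this tumor, with a log2 fold change of -0.30 without it. Its highest value came from sh4 tumor 1, where the sum of adipocyte genes was 306 RPKM and that of 6 skeletal muscle genes 5.55 RPKM, the lowest of the 6 tumors.

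**Figure D3:**
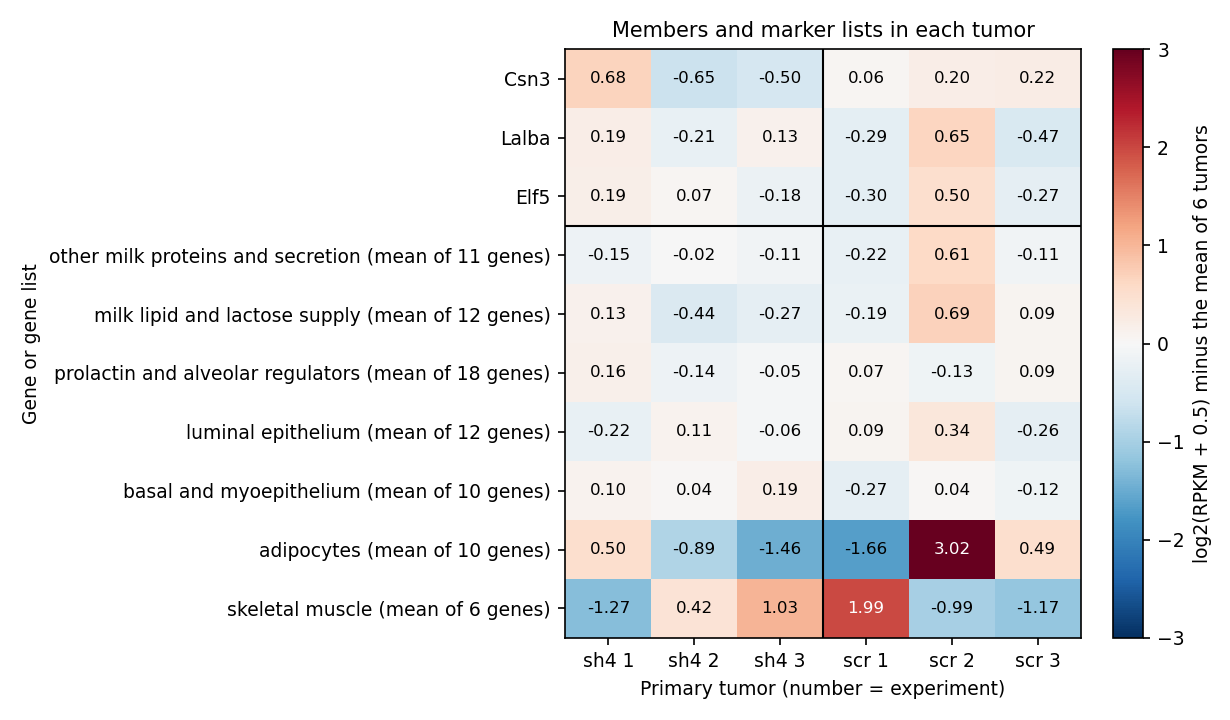
Departure of each tumor from the mean of the 6 tumors in log2(RPKM + 0.5), for the 3 members that were tested and for the mean of 7 gene lists, with sh4 tumors left of scr tumors. Red is above and blue below the mean. *Lalba* and *Elf5* peak in scr tumor 2, where the adipocyte list is at 3.02, while *Csn3* peaks in sh4 tumor 1.

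Transcripts that mark the luminal and basal layers of the gland were found in the tumors, the basal keratins *Krt14* and *Krt5* at low values. Whether basal cells of the gland were present was not tested. Keratins 8 and 18, which mark luminal cells, were high in both tables, with *Krt8* at 248 to 401 RPKM in sh4 tumors and 347 to 691 RPKM in scr tumors, and at 304 to 349 FPKM in sh4 cells and 269 to 333 FPKM in scr cells. The epithelial adhesion genes *Epcam* and *Cdh1* were at 0.533 to 2.09 RPKM in tumors and did not exceed 0.023 FPKM in cells. Of the basal keratins *Krt14* was at 0.651, 0.846 and 0.834 RPKM in sh4 tumors, against 0.362, 0.858 and 0.072 RPKM in scr tumors. Like *Elf5* it was lower in scr tumors 1 and 3 than in every sh4 tumor (log2 fold change 0.54, standard error 0.30, limma adjusted p = 0.995). This value was 0.86 without scr tumor 2 and 0.24 without scr tumor 3, and in cells *Krt14* did not exceed 0.013 FPKM. *Krt5*, its partner keratin, was at 0.306, 0.421 and 0.584 RPKM in sh4 tumors, against 0.0096, 0.623 and 0.0096 RPKM in scr tumors. *Krt17*, *Oxtr*, *Myh11* and *Lmod1* were also lower in scr tumors 1 and 3 than in every sh4 tumor. The basal genes *Trp63*, *Acta2*, *Mylk* and *Cnn1* were not. *Trp63* was at 0.707, 0.285 and 0.285 RPKM in sh4 tumors, against 0.865, 0.138 and 0.559 RPKM in scr tumors. *Acta2* was at 22.1, 26.4 and 40.6 RPKM with sh4, against 17.5, 17.0 and 45.3 RPKM with scr. Of the 10 basal genes tested in tumors and the 2 tested in cells 0 were called, and 0 of the 12 and 8 luminal genes. The part of these cells in the *Elf5* values was not tested.

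The genes most like the mean profile of *Csn3*, *Lalba* and *Elf5* over the 6 tumors were *Mup1*, *Mup12*, *Mup7*, *Cyp2e1* and *Nnat*, among 382 genes that averaged 1 RPKM or more and spanned 2 or more log2 units. Their Pearson r with that profile lay between 0.94 and 0.96 over 6 tumors, as a description. All 5 were highest in scr tumor 2 and second in sh4 tumor 1. The mean joins unlike members, since *Lalba* and *Elf5* were highest in scr tumor 2 and *Csn3* in sh4 tumor 1, and no *Mup* gene was among the 5 genes nearest to any single member. Taken alone, *Csn3* was nearest to *Mgst1* (r = 0.98), *Lalba* to *Igfbp6* (r = 0.92) and *Elf5* to *Orm1* (r = 0.95), which were added after their values were seen. *Mup1*, which encodes a major urinary protein, was at 21.9, 0.494 and 0.090 RPKM in sh4 tumors, against 0.157, 38.2 and 1.84 RPKM in scr tumors. The *Mup* genes are near-identical copies, and reads may have been divided between them. *Cyp2e1*, a cytochrome P450, was at 3.11, 0.515 and 0.374 RPKM in sh4 tumors, against 0.292, 12.2 and 0.304 RPKM in scr tumors.

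The pathway above the milk genes was present in part. The hormone gene *Prl* was listed at 0 in all libraries, and its receptor *Prlr* was at 0.133, 0.0093 and 0.0062 RPKM in sh4 tumors, against 0, 0.109 and 0.040 RPKM in scr tumors. In cells *Prlr* had a value above 0 in 1 plate, 8.4e-04 FPKM with sh4. The kinase and the transcription factors downstream were expressed in every library. *Jak2* was at 6.32 to 9.47 RPKM in sh4 tumors and 6.16 to 8.40 RPKM in scr tumors. *Stat5a* was at 2.61 to 3.80 RPKM in sh4 tumors and 3.27 to 3.39 RPKM in scr tumors, and *Stat5b* at 3.13 to 5.80 RPKM with sh4 and 4.79 to 5.74 RPKM with scr. In cells *Stat5a* was lower per length than *Stat5b*, at 0.760 to 0.832 FPKM with sh4 and 0.816 to 0.943 FPKM with scr, against 5.95 to 6.46 FPKM and 5.69 to 6.46 FPKM for *Stat5b*. *Cish*, a feedback inhibitor induced by STAT5, was at 2.05 to 2.76 RPKM in sh4 tumors and 1.56 to 2.24 RPKM in scr tumors, and did not exceed 0.070 FPKM in cells.

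Of 22 regulators of prolactin signaling and alveolar development, 18 were tested in tumors and 0 were called. In these, 9 log2 fold changes were positive and 9 negative, with a median of -0.03, beside -0.04 over all genes tested. The groups did not overlap for 2 genes higher in sh4 tumors and for 1 lower, beside 4.19% and 4.98% of all genes tested. *Wnt4*, a ligand that acts downstream of progesterone in side branching, was at 0.453, 0.610 and 0.610 RPKM in sh4 tumors, against 0.209, 0.279 and 0.174 RPKM in scr tumors (log2 fold change 0.55, standard error 0.15, limma adjusted p = 0.995). With 0.1 in place of 0.5 added to the values it was 1.04. *Areg*, the amphiregulin gene, whose product drives ductal growth through the EGF receptor, was at 2.78, 3.25 and 3.63 RPKM in sh4 tumors, against 4.98, 11.2 and 5.85 RPKM in scr tumors (log2 fold change -1.002, standard error 0.31, limma adjusted p = 0.995). *Ehf*, an epithelial ETS factor of the family of *Elf5*, was at 0.817, 0.576 and 0.327 RPKM in sh4 tumors, against 0.270, 0.185 and 0.277 RPKM in scr tumors. None of the 3 passed the adjusted threshold.

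In cultured cells 13 of the 22 regulators were tested and *Id2* was called lower, 1 of 13, beside 0.758% of all genes called lower. *Id2* encodes an inhibitor of basic helix-loop-helix factors that is required for alveolar development in the mouse. It was at 2.98, 2.71 and 2.77 FPKM with sh4, against 5.42, 6.09 and 6.27 FPKM with scr. Every sh4 plate lay below every scr plate. Means were 2.82 ± 0.14 FPKM with sh4 and 5.93 ± 0.45 FPKM with scr (SD, n = 3 each), for a log2 fold change of -0.95 (standard error 0.07, limma adjusted p = 0.0109). The size was stable when 1 plate was left out (-1.01 to -0.91), but the call was not. With sh4 plate 1, 2 or 3 or scr plate 2 or 3 left out the adjusted p was 0.0518 to 0.0675, and without scr plate 1 it was 0.0170.

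In tumors *Id2* was far more variable, at 43.8, 10.4 and 14.5 RPKM with sh4, against 31.2, 16.8 and 28.4 RPKM with scr (log2 fold change -0.38, standard error 0.50, limma adjusted p = 0.996). The tumor value had no stable size or sign, at -0.98 without sh4 tumor 1, 0.04 without sh4 tumor 2, -0.20 without sh4 tumor 3, -0.65 without scr tumor 2 and -0.21 without scr tumor 1. As for *Csn3*, sh4 tumor 1 was highest and sh4 tumors 2 and 3 were lowest. *Gata3*, which maintains the luminal fate, was at 3.89, 4.30 and 4.61 FPKM in sh4 cells, against 6.99, 5.44 and 5.32 FPKM in scr cells, and did not pass the test (log2 fold change -0.42, standard error 0.12, limma adjusted p = 0.134). In tumors the *Gata3* groups overlapped, at 4.85 to 7.62 RPKM with sh4 and 3.70 to 6.52 RPKM with scr. *Areg* in cells ran opposite to the tumors, at 6.75, 5.51 and 6.75 FPKM with sh4, against 5.33, 4.54 and 5.23 FPKM with scr (log2 fold change 0.30, standard error 0.10, limma adjusted p = 0.188). The groups did not overlap for 4 of the 13 regulators lower in sh4 cells and for 1 higher, beside 13.8% and 13.6% of all genes tested in cells. *Nr3c1*, the glucocorticoid receptor gene, and *Cebpb*, which encodes a factor needed for lobuloalveolar growth, had log2 fold changes of 0.00 and -0.02 in cells. Neither had a stable sign there with 1 plate left out.

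**Figure D4:**
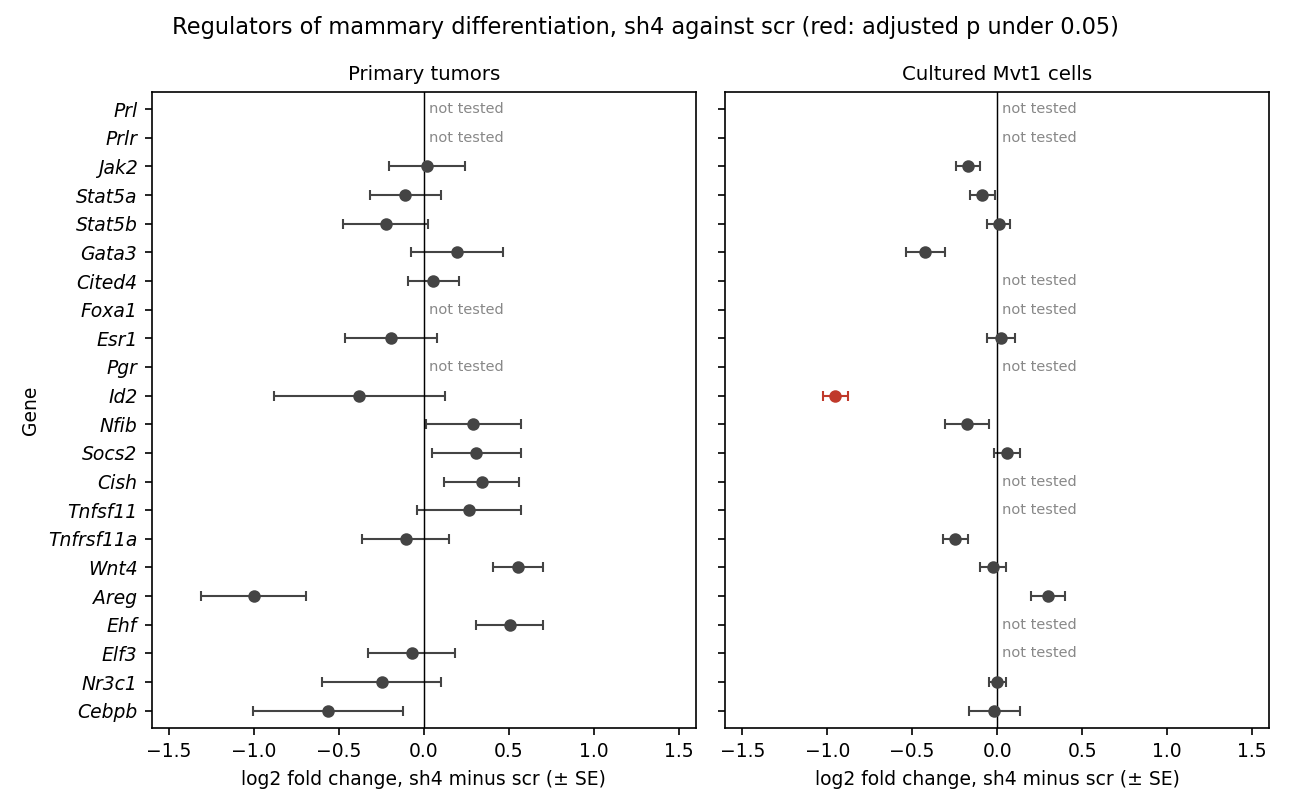
Log2 fold change of sh4 over scr with its standard error for 22 regulators of mammary differentiation, in tumors (left) and in cultured cells (right), 3 libraries a group. Genes under the mean needed for a test are marked as not tested. *Id2* in cells, in red at -0.95, is the one gene with a limma adjusted p under 0.05.

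Some genes of milk secretion outside the member set were well expressed in tumors and cells, and others of the same list were near 0. *Btn1a1*, *Csn1s2b*, *Cel*, *Lpo* and *Lao1* averaged 0.086, 0.019, 0.034, 0.0025 and 0.0036 RPKM over the 6 tumors. In cells 7 of the 18 genes of this list were at 0 in every plate. *Mfge8*, which encodes a protein of the milk fat globule, was at 85.7, 115 and 122 RPKM in sh4 tumors, against 89.9, 145 and 115 RPKM in scr tumors, and at 28.6 to 30.1 FPKM in sh4 cells and 29.6 to 31.4 FPKM in scr cells. *Plin2*, which coats lipid droplets, was at 56.3 to 84.0 RPKM in sh4 tumors and 60.0 to 138 RPKM in scr tumors. *B4galt1*, the galactosyltransferase that α-lactalbumin modifies, was expressed in both tables, so that the enzyme gene was present where *Lalba* was near 0. It was at 20.9 to 26.1 RPKM in sh4 tumors and 19.3 to 28.4 RPKM in scr tumors. In cells it was at 24.4, 23.9 and 23.8 FPKM with sh4, against 27.7, 26.3 and 28.5 FPKM with scr (log2 fold change -0.19, standard error 0.05, limma adjusted p = 0.126).

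*Ltf*, the lactoferrin gene, was at 0.340, 0.046 and 0.101 RPKM in sh4 tumors, against 0.023, 3.48 and 0 RPKM in scr tumors, so that scr tumor 2 stood highest here as well, and it was listed at 0 in every plate of cells. *Glycam1*, a mucin of milk and of lymph node vessels, was lowest in that tumor, with 0.139, 0.278 and 0.313 RPKM in sh4 tumors, against 0.243, 0.035 and 0.139 RPKM in scr tumors. *Trf*, the transferrin gene, differed between the tables, at 36.0 to 42.7 RPKM in sh4 tumors and 32.5 to 50.8 RPKM in scr tumors but listed at 0 in all plates of cells. Of 18 genes in the list 11 were tested in tumors and 5 in cells, and 0 were called in either. Tumor log2 fold changes were positive for 4 and negative for 7 of the 11, with a median of -0.03. For *Aqp5*, a water channel gene, the tumor groups did not overlap, with 5.44, 5.62 and 4.90 RPKM in sh4 tumors, against 7.58, 11.7 and 7.95 RPKM in scr tumors (log2 fold change -0.70, standard error 0.22, limma adjusted p = 0.995). In cells *Aqp5* overlapped, at 13.2 to 14.7 FPKM with sh4 and 12.5 to 14.6 FPKM with scr.

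Genes of lipid synthesis and lactose supply stood highest in scr tumor 2 by their mean, 0.69 above the mean of the 6 tumors in log2 units. Of the genes tested, *Fasn*, *Acaca*, *Scd1*, *Thrsp*, *Slc2a1* and *Dgat1* were highest there. *Scd2*, *Acly*, *Srebf1*, *Fabp3*, *Gpam* and *Agpat6* were not. *Scd2*, the gene with the highest mean of the list, was lowest in scr tumor 2, at 27.8 RPKM against 31.7 to 62.3 RPKM in the other tumors. Of 14 genes 12 were tested in tumors, with 11 log2 fold changes negative, 1 positive, 0 called, and a median of -0.29 beside -0.04 over all genes tested. Without scr tumor 2 the median was -0.18. The groups did not overlap for 2 of the 12 genes, both lower in sh4 tumors, beside 4.98% of all genes tested. *Scd1*, a fatty acid desaturase, was at 32.0, 6.46 and 5.84 RPKM in sh4 tumors, against 12.3, 156 and 40.8 RPKM in scr tumors (log2 fold change -1.95, standard error 0.94, limma adjusted p = 0.995). It was -1.03 without scr tumor 2 and -2.83 without scr tumor 1. The adipocyte genes above moved with it, and their part in the *Scd1* values was not tested. In cells the *Scd1* groups overlapped, at 37.7 to 39.2 FPKM with sh4 and 38.5 to 40.9 FPKM with scr. Of 12 genes tested in cells 8 log2 fold changes were positive and 4 negative, with 0 called. The groups did not overlap for 3 of these 12, all higher in sh4 cells, beside 13.6% of all genes tested in cells. *Acaca*, the enzyme of the first step of fatty acid synthesis, was at 1.89, 1.85 and 1.79 FPKM in sh4 cells, against 1.37, 1.66 and 1.47 FPKM in scr cells (log2 fold change 0.23, standard error 0.08, limma adjusted p = 0.187). The adipocyte genes themselves had negative log2 fold changes in 10 of 10 in tumors, with a median of -1.31 that was -0.07 without scr tumor 2, and 0 were called. In cells 1 of the 10 was tested, and the others fell under the mean needed for a test, so the list cannot be judged there. The gene tested was *Lipe*, the gene of hormone-sensitive lipase. It was called lower, as were 0.758% of all genes tested in cells. It was at 1.95, 2.01 and 1.98 FPKM with sh4, against 2.73, 2.68 and 2.81 FPKM with scr (log2 fold change -0.39, standard error 0.06, limma adjusted p = 0.0453). The groups were far apart for their spread, but with any 1 plate left out the adjusted p was 0.0554 to 0.183.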

How the data were processed

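The deposited tables of tumors and of cells were used. The tumor table holds RPKM, which the authors made from HiSeq2500 mRNA reads with Trimmomatic, Tophat (mm9, Ensembl v70 transcripts) and Partek, with the counting program not given in the sources used here. The cell table holds FPKM, which the authors deposited for Ensembl genes and assembled loci from total RNA. Its methods name Tophat and DESeq2, and the submitters' processing notes list STAR 2.7 and TopHat2 2.1.0 without their roles. Exome libraries were not analysed here.

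All 6 columns of each table were used. From the table of cells 239874 assembled loci were left out. After a log2(value + 0.5) transform, genes averaging 0.1 or more (13487 in tumors, 21106 in cells) were compared between sh4 and scr in limma 3.58.1 (R 4.3.3, variance trend), and a gene was called at a Benjamini-Hochberg adjusted p under 0.05. DESeq2 was not run, since FPKM is not a count. The code was tested on simulated data. Coordinates came from GENCODE vM1 (NCBIM37), the build of the tumor table, and upstream sequences from RefSeq GRCm38.p6, which holds entries for the members other than *Csn3*.

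Members and the other 13 gene lists were chosen with earlier results of these data known. Named genes were the members, the 2 genes of each list with the highest mean and the 2 with the smallest p in each table, of which the text uses a part, and the 5 genes most like the members' mean profile. *Prl*, *Prlr*, *Jak2*, *Stat5a*, *Stat5b*, *Cish*, *Ehf*, *Ltf*, *Trf*, *Epcam*, *Cdh1*, *Krt5* and *Cops3*, and genes of a list given for their values in the other table, were added after their values were seen. So were *Trp63*, *Krt17*, *Oxtr*, *Myh11*, *Cnn1*, *Btn1a1*, *Csn1s2b*, *Cel*, *Lpo*, *Lao1*, *Fasn*, *Thrsp*, *Srebf1*, *Slc2a1*, *Gpam*, *Agpat6* and *Dgat1*. Of the 7 further marker lists, those of fibroblasts, B cells, macrophages, red blood cells and skeletal muscle had 0 genes called in either table. Those of T cells and endothelium had 0 called in tumors, and none of their genes was tested in cells. In tumors 4 of 6 T cell, 2 of 5 endothelial and 1 of 3 lymph node and B cell genes tested had sh4 above scr without overlap. Over all genes tested in tumors this share was 4.19%. In cells 2 of 3 macrophage genes tested had sh4 below scr without overlap, beside 13.8% of all genes tested.

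Tumor numbers pair the groups, since a number marks an experiment. Deviations from the group means correlated at 0.138, 0.330 and -0.117 within experiments 1 to 3. Between tumors of different experiments the correlations lay between -0.298 and 0.293, which overlaps those within experiments. Alternatives were a block for the replicate number, pseudocounts of 0.1 and 1, a filter at 1 or none, quantile normalization, median-ratio scaling, a fit with no trend, and leaving out each library.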

Additional observations from a re-analysis of the deposited data

Results flagged for a closer look

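*Areg* was the single gene, of 51 list genes tested in both tumors and cells, whose groups lay apart in opposite directions. Over all genes tested the groups lay apart with sh4 lower for 4.98% in tumors and 13.8% in cells. They lay apart with sh4 higher for 4.19% in tumors and 13.6% in cells. The share of all genes that lay apart in opposite directions was not computed. Every sh4 tumor was lower than every scr tumor (log2 fold change -1.002), and every sh4 plate of cells was higher than every scr plate (log2 fold change 0.30). Neither change passed the adjusted threshold (limma adjusted p = 0.995 in tumors and 0.188 in cells), and the difference between tumors and cells was not tested.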

How the results depend on the processing

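Under the 14 alternatives 0 members were called in tumors and 0 in cells, and *Csn3* kept a negative log2 fold change in both tables, at -0.73 to -0.07 in tumors and -0.27 to -0.08 in cells with 1 library left out. *Elf5* and *Lalba* in tumors had no stable direction. *Elf5* was -2.6e-04 with quantile normalization and -0.089 to 0.15 with 1 tumor left out, and *Lalba* -0.14 to 0.42. Leaving out scr tumor 2 gave no value for *Elf5*, which then fell under the filter, and neither *Elf5* nor *Lalba* was tested at a mean of at least 1 RPKM. With 1 library left out *Id2* in tumors was -0.98 to 0.037, and in cells *Nr3c1* was -0.025 to 0.029 and *Cebpb* -0.16 to 0.11. *Nr3c1* was -0.078 in cells with quantile normalization. With a pseudocount of 0.1 the tumor values were 0.35 for *Elf5*, 0.43 for *Lalba*, 1.04 for *Wnt4*, 0.91 for *Ehf*, 1.04 for *Krt14* and 1.26 for *Lmod1*, and with 1 they were 0.02, 0.03, 0.35, 0.33, 0.35 and 0.35 in that order. The 12 fold changes followed in tumors and 11 in cells gave 315 values under an alternative, of which 16 reversed (*Elf5* 4, *Lalba* 3, *Id2* in tumors 1, *Nr3c1* in cells 5, *Cebpb* in cells 3) and 13 lost a call, those of *Id2* (6) and *Lipe* (7) in cells.

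The number of genes called in tumors was 0 under each alternative except without a filter, where it was 7. In cells 270 genes were called, against 64 without a filter, 408 with a mean of at least 1 FPKM, 1219 with quantile normalization, 961 with median-ratio scaling, 171 without the variance trend, 242 without scr plate 1 and 2 to 18 without any other plate. With the replicate block of plate numbers 0 genes were called in cells and *Id2* had an adjusted p of 0.171. Plate numbers did not pair the cells, with correlations of -0.06, -0.08 and -0.07 between plates of 1 number. The replicate block of experiments in tumors left 0 genes called and changed no call. With 3 libraries a group and values of 0 or a few steps, small differences in *Csn1s1*, *Csn1s2a*, *Csn2* and *Wap* were not detectable.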
